A study of Mus musculus with 8 samples.

Results

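The genes described here are those of the lysosome named by symbol, 35 in all, together with every gene whose symbol starts with Atp6v, of which there are 23. The 35 are 10 cathepsins, 17 other proteins of the lysosome lumen, 5 membrane proteins and 3 of the transcription factors of the MiT family. All 58 were chosen by name, with earlier results of these data known, out of 23361 genes in the authors' table.

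The data are poly(A) RNA sequencing of established leukaemia (AML) lines from mouse bone marrow, strain 129S6, transformed with the fusion oncogene MLL-AF9. The floxed cells are Cdc73 fl/fl with CreERT2, the wild type cells are Cdc73 +/+ with CreERT2, and the product of Cdc73 belongs to the PAF1 complex, an elongation factor of RNA polymerase II. All 8 libraries carry the recombinase and were treated with 7.5 nM 4-hydroxytamoxifen (4OHT), which activates it. The 4 groups are floxed cells and wild type cells after 24 h, and floxed cells and wild type cells after 48 h, each with 2 biological duplicates. Both lines grew with 10 ng/mL interleukin 3, and no library without 4OHT was analysed here. Each genotype is its own line, so genotype and line cannot be told apart, and how many clones or animals lie behind a line is not stated.

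The authors' deposited table gives a single FPKM value (sequenced fragments corrected for transcript length and for library size) for each gene and group, with the duplicates combined. Levels below are those values, with no SD or n, and the depth per library is unknown. A gene is said to be called, and to have risen or fallen, where the authors' deposited table gives q under 0.05 for floxed against wild type cells at that time. That test rests on 2 libraries per group, and how far it sees variation between separate cultures is not stated. A fold is the ratio of FPKM values in floxed over wild type cells, given only where both reach 1 FPKM. Log2 changes were taken after adding 1 to each FPKM, so they are too small for genes at low levels. In floxed cells Cdc73 itself was at 5.96 FPKM, against 26.2 FPKM in wild type cells, at 24 h, and at 5.45 FPKM in floxed cells against 26.9 FPKM in wild type cells at 48 h, and it was called lower at both times. The locus entry of Cdc73 also names another gene, so its levels are uncertain. The FPKM values of all genes summed to between 653299 and 699193 per group.

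Lysosomes are acidic compartments in which hydrolases take proteins, lipids, glycans and nucleic acids apart. The acid is supplied by the V-ATPase, a rotary pump with a V1 sector that burns ATP in the cytosol and a V0 sector that carries protons through the membrane. Transcription factors of the MiT family (TFEB, TFE3, MITF and TFEC) bind a motif built around CACGTG that recurs near the start of many lysosomal genes. In blood cells of the myeloid lineage, lysosomes and related granules are large and protease-rich.

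Most of these 58 genes that were called were higher in floxed cells at 48 h, and few were called at 24 h. Of the 58 genes, 52 reached 1 FPKM in at least 1 group, and 6 pump genes stayed under it everywhere (Atp6v0a4, Atp6v0e2, Atp6v1b1, Atp6v1c2, Atp6v1e2 and Atp6v1g3). At 24 h, 10 of the 52 (19.2%) were called, 5 higher and 5 lower (9.62% each), where 27.6% of all tested genes were called (13.4% higher in floxed cells and 14.2% lower). At 48 h, 35 (67.3%) were called, 31 higher (59.6%) and 4 lower (7.69%), where 56.8% of all tested genes were called (25.7% higher and 31.0% lower). The median log2 change of the 52 was 0.03 at 24 h and 0.45 at 48 h, and that of all genes at 1 FPKM or more was -0.01 and -0.06. Of the 31 that rose at 48 h, 25 were at least 1.5-fold higher and 12 at least 2-fold higher, counting Ctse, Ctsk, Atp6v0d2 and Atp6v1g2, which were under 1 FPKM in wild type cells. Among all 11039 tested genes 2842 rose at 48 h, 2226 of them at least 1.5-fold and 1306 at least 2-fold. Calls were made at both times for 7 of the 52 genes, 5 higher both times (Ctsc, Ctse, Neu1, Smpd1 and Atp6v1g2) and 2 lower both times (Asah1 and Atp6v0d1), and none of the 52 was called in opposite directions. Of all 11158 genes at 1 FPKM or more, 2343 were called in the same direction at both times. Opposite calls were rare among all genes too, with 136 of the 11158. Leaving the pseudogene Atp6v0c-ps2 out of sums, the lysosomal genes held 6136 FPKM in floxed cells and 6237 FPKM in wild type cells at 24 h. At 48 h they held 9314 FPKM (1.33% of all FPKM) in floxed cells and 5539 FPKM (0.848%) in wild type cells.

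**Figure D1:**
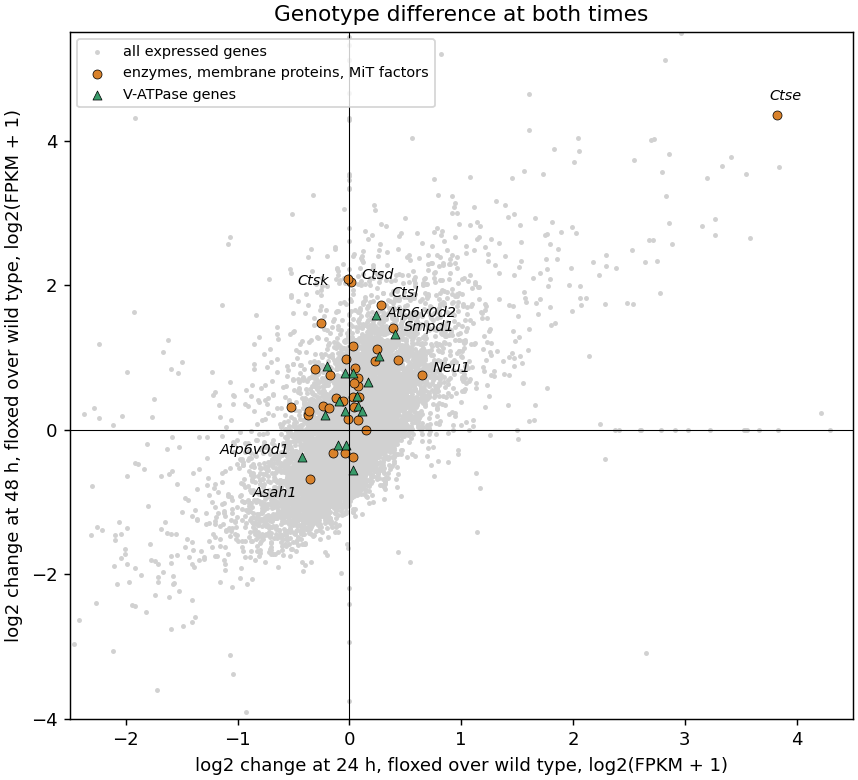
Log2 change of FPKM + 1, floxed over wild type cells, at 24 h (x axis) and 48 h (y axis), with lysosomal genes coloured over all genes at 1 FPKM or more in grey. Most lysosomal genes lie near 0 at 24 h and above 0 at 48 h, with medians of 0.03 and 0.45, and some grey genes lie outside the axes.

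Several limits touch single genes. Ctse, Ctsk and Atp6v1g2 reached 1 FPKM only in floxed cells, so they entered the count of 52 through the group in which they are high. The table gives 9 of the 58 genes a locus entry that also names another gene, among them Ctsa, Ctsb, Ctsz, Glb1, Atp6v0c and Atp6v1b2, and their values are uncertain because reads may be divided between the names. Atp6v0c shares its entry with Atp6v0c-ps2, a processed pseudogene with a near-identical sequence that GENCODE M21 places on chromosome 6, so the pair is best read as a single measurement. In bulk RNA a change in the share of some cells and a change of RNA per cell cannot be told apart.

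CACGTG motifs are shown here because the MiT factors that bind them are among the 58 genes. RefSeq promoter windows (build GRCm38.p6, 250 bases before to 50 bases after a start site) were found for 46 of the 58 genes, some with several start sites. Each window was searched for CACGTG and for the longer TCACGTGA, which contains it, and both read the same on either strand. CACGTG was in a window of 13 of the 40 genes with a window and at least 1 FPKM (32.5%), and in 12.4% of all 8239 such genes of the table. TCACGTGA was in 7 of the 40 (17.5%), and in 2.45% of such genes. Windows of these lysosomal genes held fewer CG steps than those of expressed genes, with medians of 13 and 21. Below are the 250 bases before the start of Ctsd, then stretches of 7 other promoters around their motifs, with the motifs in capitals, each written 5′ to 3′ along the gene's strand.
Ctsd, chr7:142387828-142388077, minus strand: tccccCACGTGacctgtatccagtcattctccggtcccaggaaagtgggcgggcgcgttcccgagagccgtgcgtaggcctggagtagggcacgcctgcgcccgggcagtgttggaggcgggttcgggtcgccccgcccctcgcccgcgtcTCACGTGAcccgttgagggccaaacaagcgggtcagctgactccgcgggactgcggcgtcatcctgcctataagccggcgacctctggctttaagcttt
Lamp1, chr8:13159083-13159168, plus strand: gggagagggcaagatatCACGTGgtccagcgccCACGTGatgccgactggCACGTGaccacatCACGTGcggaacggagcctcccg
Atp6v0b, chr4:117887325-117887382, minus strand: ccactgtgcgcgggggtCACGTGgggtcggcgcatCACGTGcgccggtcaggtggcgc
Gla, chrX:134601177-134601249, minus strand: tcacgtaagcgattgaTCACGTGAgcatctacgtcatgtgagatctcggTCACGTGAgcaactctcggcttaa
Ctsa, chr2:164833744-164833800, plus strand: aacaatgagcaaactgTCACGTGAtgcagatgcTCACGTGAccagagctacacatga
Mcoln1, chr8:3500431-3500496, plus strand: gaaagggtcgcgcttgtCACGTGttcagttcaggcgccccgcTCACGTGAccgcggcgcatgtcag
Atp6v1a, chr16:44139368-44139407, minus strand: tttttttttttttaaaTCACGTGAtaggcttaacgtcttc
Atp6v0d1, chr8:105566045-105566084, minus strand: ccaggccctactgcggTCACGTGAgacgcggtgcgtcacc
The first 5 belong to genes that rose at 48 h. Mcoln1 and Atp6v1a were not called, and Atp6v0d1 fell. Lamp1 holds CACGTG 4 times, with first bases 61, 45, 28 and 15 bases before its start, and Ctsd holds the longer motif 98 bases and the shorter one 245 bases before its start. GENCODE M21 starts the genes Ctsd, Ctsa, Atp6v1a, Gla and Mcoln1 farther upstream than the RefSeq start used here, by 211, 900, 446, 120 and 62 bases. The printed motifs of Ctsa and Atp6v1a, and the motif nearer to the RefSeq start in Ctsd and Mcoln1, therefore lie inside the GENCODE gene. So do the motifs of Ctsl, Lgmn and Atp6v0e, which are not printed. GENCODE starts those genes 370, 721 and 13165 bases upstream of the RefSeq start used.

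Genes with and without a motif were among those that rose. Of the 13 genes with CACGTG (Ctsa, Ctsd, Ctsl, Lgmn, Gla, Lamp1 and Atp6v0b, which rose at 48 h, Atp6v0d1, which fell, and Gaa, Glb1, Mcoln1, Atp6v0e and Atp6v1a, which were not called), 7 rose. Of 27 genes at 1 FPKM or more with a window that lacks it, 19 rose, none fell and 8 were not called. Median log2 changes at 48 h were 0.44 with the motif and 0.71 without it. TCACGTGA was found in 3 genes that rose (Ctsd, Ctsa and Gla), in Atp6v0d1 and in 3 uncalled genes. These matches are letters in a window of 300 bases and say nothing of binding.

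**Figure D2:**
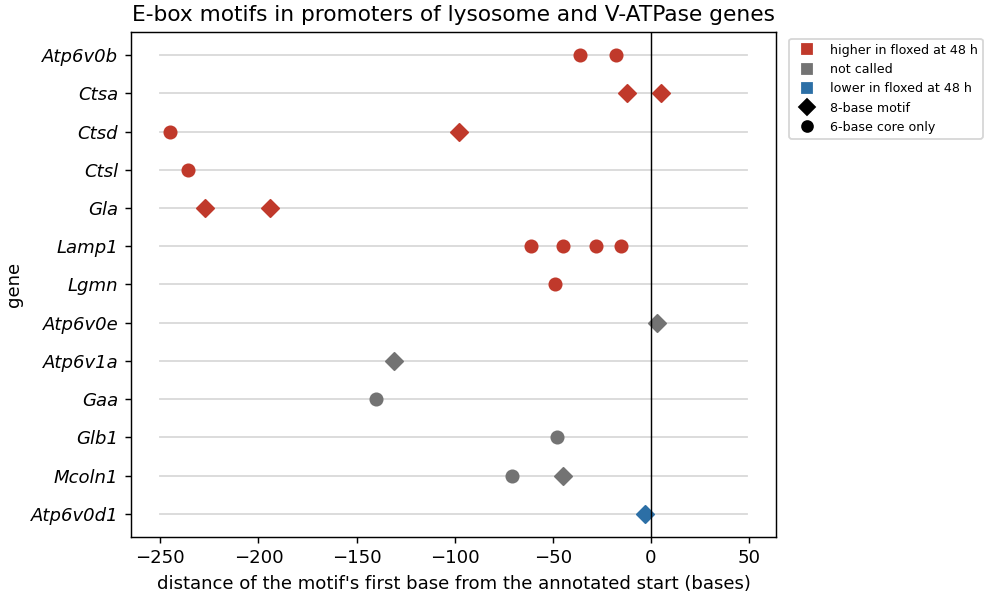
Distance in bases of each CACGTG from the RefSeq start site (x axis) in the 13 lysosomal promoters that hold it (y axis), with diamonds for the longer TCACGTGA and colours for the call at 48 h. Genes that rose and uncalled genes hold motifs both close to the start and far from it, and the gene that fell, Atp6v0d1, holds its motif at the start.

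Cathepsins had the highest median log2 change of the roles at 48 h, 1.22, with 8 of 10 higher (80%) and none lower. Of all tested genes 25.7% rose and 31.0% fell at 48 h. At 24 h 2 cathepsins had risen (20%) and 1 had fallen (10%), against 13.4% and 14.2% of all tested genes. Ctse counts among the rises at both times, and Ctsk at 48 h. Both reached 1 FPKM only in floxed cells, so they entered these counts through the group in which they are high. Cathepsin D, an aspartic protease and the main lysosomal endopeptidase of its kind, was the most abundant. Ctsd (ENSMUSG00000007891.16, chr7:142375911-142388038, minus strand, mm10) was at 587 FPKM in floxed cells and 583 FPKM in wild type cells at 24 h. At 48 h it was at 2102 FPKM in floxed cells, 4.11-fold over the 511 FPKM of wild type cells, with q = 0.000165 in the authors' deposited table. That q is the smallest in its column and is shared by 3684 genes, among them 21 of the lysosomal genes, and it holds for every lysosomal gene of the 58 that is given below as higher at 48 h with no q. Ctsd thus made up 64.3% of cathepsin FPKM in floxed cells and 41.2% in wild type cells at 48 h, and 39.2% in floxed cells and 39.8% in wild type cells at 24 h. Without Ctsd, the other 9 cathepsins summed to 1167 FPKM in floxed cells and 729 FPKM in wild type cells at 48 h.

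The cysteine cathepsins Ctsl, Ctss, Ctsb and Ctsc rose by smaller factors than Ctsd. Ctsl, an endopeptidase, was at 49.9 FPKM in floxed cells and 40.9 FPKM in wild type cells at 24 h, and at 107 FPKM in floxed cells against 31.5 FPKM in wild type cells at 48 h, 3.39-fold higher. Ctss, known for trimming the invariant chain of MHC class II, was at 68.8 FPKM in floxed cells and 82.0 FPKM in wild type cells at 24 h, and at 110.7 FPKM in floxed cells against 39.4 FPKM in wild type cells at 48 h, 2.81-fold higher. In Ctss the gap at 48 h comes from both lines, since the wild type level at 48 h was 0.480 times that at 24 h and the floxed level 1.61 times. Ctsb, an endopeptidase and carboxydipeptidase, had 109 FPKM in floxed cells and 122 FPKM in wild type cells at 24 h, and 168 FPKM in floxed cells against 98.7 FPKM in wild type cells at 48 h, 1.70-fold higher. Ctsc, which activates the serine proteases of granulocyte granules, had risen by 24 h with 110.4 FPKM in floxed cells and 81.8 FPKM in wild type cells (q = 0.00964 in the authors' deposited table). At 48 h Ctsc had 117 FPKM in floxed cells and 59.7 FPKM in wild type cells, 1.97-fold higher. Its floxed values differ little between the times, and it is the wild type value that is lower at 48 h.

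Ctse and Ctsk stood near 0 in wild type cells. Cathepsin E is an aspartic protease of endosomes, and Ctse had 19.6 and 27.5 FPKM in floxed cells at 24 h and 48 h, against 0.461 and 0.386 FPKM in wild type cells, called at both times (q = 0.000449 and q = 0.000165 in the authors' deposited table). Cathepsin K is the collagen-degrading protease of osteoclasts, and Ctsk was at 0.418 FPKM in floxed cells and 0.425 FPKM in wild type cells at 24 h, and at 3.83 FPKM in floxed cells against 0.146 FPKM in wild type cells at 48 h. Carboxypeptidase Ctsa, which also protects the sialidase Neu1, had 116 FPKM in floxed cells and 85.1 FPKM in wild type cells at 48 h, 1.36-fold higher (q = 0.0149 in the authors' deposited table). Aminopeptidase Ctsh fell at 24 h, with 12.1 FPKM in floxed cells and 17.8 FPKM in wild type cells, 1.47 times lower (q = 0.00216 in the authors' deposited table). At 48 h Ctsh was at 12.7 FPKM in floxed cells and 9.99 FPKM in wild type cells and was not called. Ctsz, an exopeptidase and second in abundance, was at 504 FPKM in floxed cells and 404 FPKM in wild type cells at 48 h and was not called (q = 0.113 in the authors' deposited table).

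**Figure D3:**
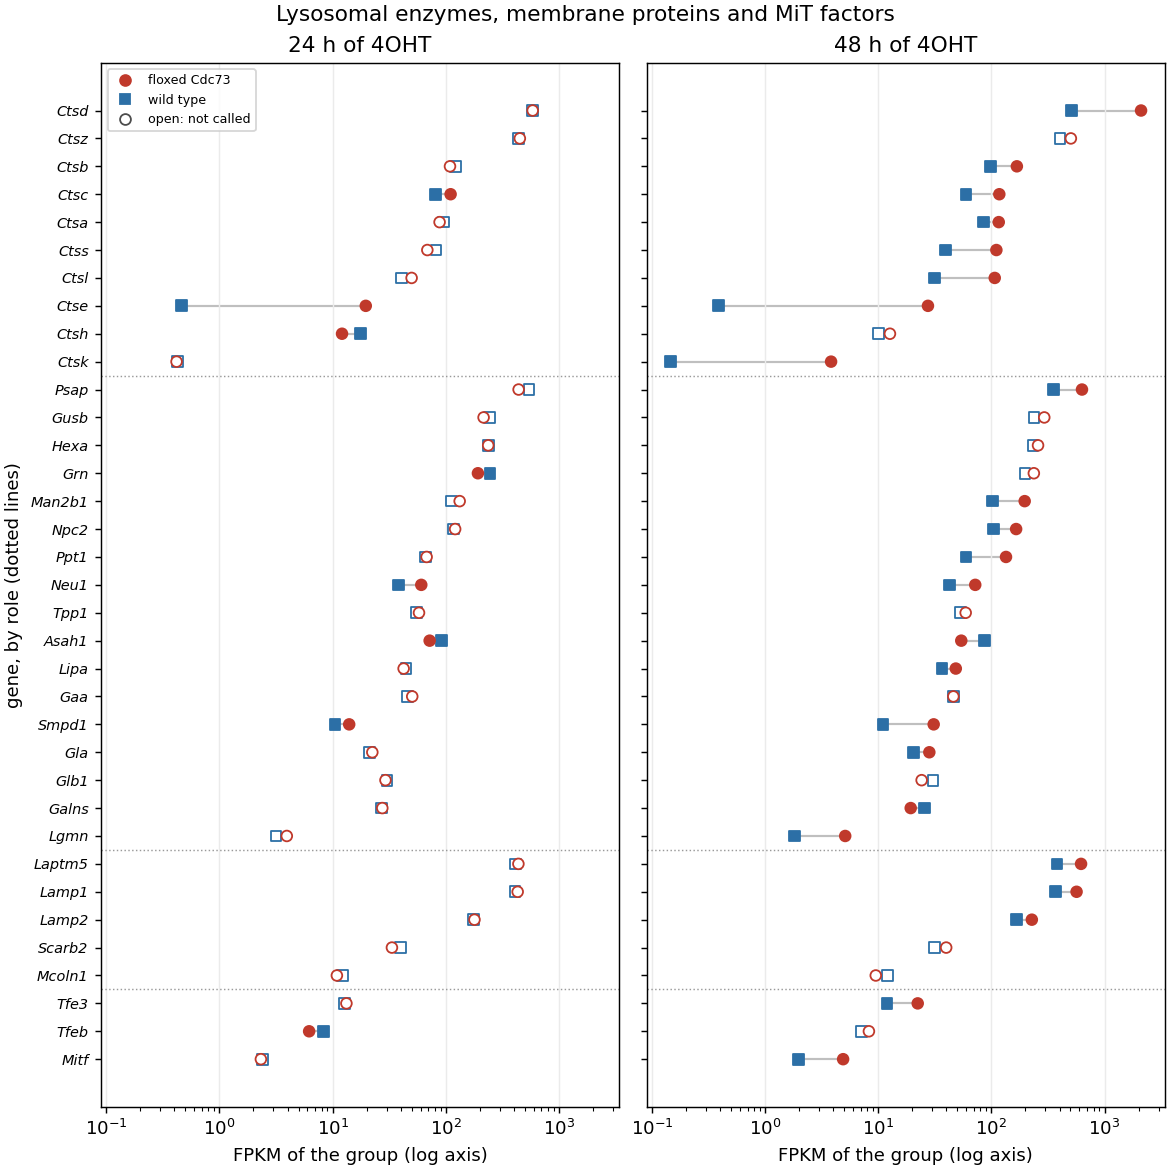
FPKM (log axis) of the 35 lumen, membrane and MiT genes in floxed cells (red circles) and wild type cells (blue squares) at 24 h and 48 h, with filled marks for genes called in the authors' table. Pairs of marks nearly coincide at 24 h except for Ctse and a few others, and at 48 h Ctsd (2102 against 511 FPKM), Ctsk and Ctse show the widest gaps in the floxed direction.

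Of the other 17 lumen proteins, 9 rose (52.9%) and 2 fell (11.8%) at 48 h, where 25.7% of all tested genes rose and 31.0% fell. The median log2 change of the 17 was 0.40. Among enzymes and cofactors of sphingolipid breakdown the changes went both ways. Psap, the precursor of the saposins that present lipids to their hydrolases, was at 441 FPKM in floxed cells and 545 FPKM in wild type cells at 24 h, and at 632 FPKM in floxed cells against 353 FPKM in wild type cells at 48 h, 1.79-fold higher. Smpd1, acid sphingomyelinase, which makes ceramide, had risen by 24 h with 14.0 FPKM in floxed cells and 10.5 FPKM in wild type cells (q = 0.0236 in the authors' deposited table). At 48 h Smpd1 was at 30.9 FPKM in floxed cells and 11.0 FPKM in wild type cells, 2.80-fold higher. Asah1, acid ceramidase, which breaks ceramide down, fell at both times. It was at 72.1 FPKM in floxed cells and 92.3 FPKM in wild type cells at 24 h (q = 0.0416 in the authors' deposited table), and at 54.2 FPKM in floxed cells against 87.2 FPKM in wild type cells at 48 h, 1.61 times lower (q = 0.000316 there). The ratio of Smpd1 to Asah1 FPKM was thus 0.195 in floxed cells and 0.114 in wild type cells at 24 h, and 0.570 in floxed cells and 0.126 in wild type cells at 48 h. Gla, alpha-galactosidase A, had 28.3 FPKM in floxed cells and 20.5 FPKM in wild type cells at 48 h, 1.38-fold higher (q = 0.0141 in the authors' deposited table).

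Among hydrolases of glycans and proteins, Neu1, Man2b1, Ppt1 and Lgmn rose and Galns fell at 48 h. Neu1, a sialidase that acts in a complex with Ctsa and Glb1, was higher at both times, with 60.8 FPKM in floxed cells and 38.4 FPKM in wild type cells at 24 h (1.58-fold, q = 0.000449 in the authors' deposited table) and 72.0 FPKM in floxed cells against 42.5 FPKM in wild type cells at 48 h (1.70-fold). The 3 genes of that complex did not move together, since Ctsa rose at 48 h only and Glb1, beta-galactosidase, had 24.2 FPKM in floxed cells and 30.5 FPKM in wild type cells and was not called. Man2b1, an alpha-mannosidase, had 197 FPKM in floxed cells and 102 FPKM in wild type cells at 48 h, 1.94-fold higher. Ppt1, which removes palmitate from proteins, had 67.8 FPKM in floxed cells and 66.2 FPKM in wild type cells at 24 h, and 135 FPKM in floxed cells against 59.6 FPKM in wild type cells at 48 h, 2.26-fold higher. Lgmn, an asparaginyl endopeptidase that processes cathepsins, was low but 2.81-fold higher at 48 h, with 5.11 FPKM in floxed cells and 1.82 FPKM in wild type cells. Galns, a sulfatase of keratan sulfate, fell at 48 h with 19.4 FPKM in floxed cells and 25.6 FPKM in wild type cells, 1.32 times lower (q = 0.0379 in the authors' deposited table).

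Npc2 and Lipa, both of cholesterol handling, rose at 48 h. Npc2, which hands cholesterol to the lysosomal membrane, had 165 FPKM in floxed cells and 105 FPKM in wild type cells, 1.58-fold higher (q = 0.000316 in the authors' deposited table). Lipa, the acid lipase that frees cholesterol from its esters, had 48.5 FPKM in floxed cells and 36.5 FPKM in wild type cells, 1.33-fold higher (q = 0.0266 in the authors' deposited table). Grn, progranulin, was lower at 24 h, with 193 FPKM in floxed cells and 247 FPKM in wild type cells (q = 0.0454 in the authors' deposited table), and had 237 FPKM in floxed cells against 198 FPKM in wild type cells at 48 h, not called. The abundant glycosidases Hexa and Gusb were not called at either time. Hexa stood at 258 FPKM in floxed cells and 233 FPKM in wild type cells at 48 h, and Gusb at 293 FPKM in floxed and 238 FPKM in wild type cells. Glb1, Gaa and Tpp1, between 24.2 and 59.3 FPKM in every group, were not called at either time either.

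Membrane proteins were called at 48 h only, 3 of 5 higher (60%) and none lower, with a median log2 change of 0.45. Of all tested genes 25.7% rose and 31.0% fell at that time. Lamp1, a heavily glycosylated protein that lines the membrane and whose promoter is printed above, had 432 FPKM in floxed cells and 408 FPKM in wild type cells at 24 h, and 566 FPKM in floxed cells against 371 FPKM in wild type cells at 48 h (1.53-fold, q = 0.00112 in the authors' deposited table). Lamp2, its relative and the receptor of chaperone-mediated autophagy, had 228 FPKM in floxed cells and 166 FPKM in wild type cells at 48 h, 1.37-fold higher (q = 0.0246 in the authors' deposited table). Laptm5, a lysosomal membrane protein of blood cells, had 620.1 FPKM in floxed cells and 379.9 FPKM in wild type cells at 48 h, 1.63-fold higher. Scarb2, which carries glucocerebrosidase to lysosomes, had 39.9 FPKM in floxed cells and 31.6 FPKM in wild type cells and was not called. Mcoln1, a cation channel that releases calcium, lay in the other direction, with 9.51 FPKM in floxed cells and 12.1 FPKM in wild type cells at 48 h, and was not called (q = 0.0920 in the authors' deposited table).

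The MiT factors Tfe3, Mitf and Tfeb were at low levels. Tfe3 had 13.3 FPKM in floxed cells and 12.8 FPKM in wild type cells at 24 h, and 22.3 FPKM in floxed cells against 11.9 FPKM in wild type cells at 48 h, 1.87-fold higher. Mitf had 2.32 FPKM in floxed cells and 2.39 FPKM in wild type cells at 24 h, and 4.89 FPKM in floxed cells against 1.98 FPKM in wild type cells at 48 h, 2.47-fold higher. Tfeb was lower at 24 h, with 6.20 FPKM in floxed cells and 8.31 FPKM in wild type cells (q = 0.0304 in the authors' deposited table), and had 8.27 FPKM in floxed cells against 7.07 FPKM in wild type cells at 48 h, not called. Tfec, the other member of the family and much more abundant, was not among the 58 and is given here after its values were seen. It had 194 FPKM in floxed cells and 203 FPKM in wild type cells at 24 h, and fell at 48 h with 128 FPKM in floxed cells and 213 FPKM in wild type cells, 1.66 times lower. The activity of these factors is known to depend on where the protein sits in the cell, which RNA does not show.

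Of the 17 V-ATPase genes at 1 FPKM or more, 1 rose and 1 fell at 24 h, 11.8% called against 27.6% of all tested genes. At 48 h 9 rose (52.9%) and 2 fell (11.8%), where 25.7% of all tested genes rose and 31.0% fell. The 48 h rises counted Atp6v0c and its pseudogene separately. Atp6v1g2, counted as risen at both times, reached 1 FPKM only in floxed cells. Median log2 changes at 48 h were 0.73 over 8 V0 genes and 0.33 over 9 V1 genes. V0 genes without the pseudogene summed to 1238 FPKM in floxed cells and 863 FPKM in wild type cells at 48 h, and V1 genes to 1002 FPKM in floxed and 811 FPKM in wild type cells. The V0 sector changed unevenly. Atp6v0c, the subunit of the proton-carrying ring, had 281 FPKM in floxed cells and 235 FPKM in wild type cells at 24 h, and 416 FPKM in floxed cells against 205 FPKM in wild type cells at 48 h (2.03-fold, q = 0.000595 in the authors' deposited table). The pseudogene entry Atp6v0c-ps2 had 400.3 FPKM in floxed cells and 253 FPKM in wild type cells at 48 h (1.58-fold, q = 0.0222 in the authors' deposited table). Atp6v0b, a further ring subunit, had 332 FPKM in floxed cells and 192 FPKM in wild type cells at 48 h, 1.73-fold higher. Atp6v0e, a small membrane subunit, had 341 FPKM in floxed cells and 294 FPKM in wild type cells and was not called.

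Subunits a and d of V0 come in several forms, and these did not move alike. Subunit a, which lets protons on and off the ring, is encoded by Atp6v0a1, Atp6v0a2, Tcirg1 (form a3, from the list of accessory genes) and Atp6v0a4, which was listed at 0 in all groups. Atp6v0a1 rose at 48 h with 27.1 FPKM in floxed cells and 14.3 FPKM in wild type cells, 1.89-fold higher. Atp6v0a2, the form known from the Golgi and endosomes, fell at 48 h with 15.1 FPKM in floxed cells and 22.8 FPKM in wild type cells, 1.51 times lower (q = 0.00187 in the authors' deposited table). At 24 h Atp6v0a2 had 20.7 FPKM in floxed cells and 20.2 FPKM in wild type cells. The deposited locus entry of Atp6v0a2 starts at base 124712207 of chromosome 5, and GENCODE M21 starts the gene at base 124628576. The entry may cover only part of the gene, so the level and share of Atp6v0a2 are uncertain. Tcirg1, the form of lysosomes and of the osteoclast border, had 71.0 FPKM in floxed cells and 39.6 FPKM in wild type cells at 48 h, 1.79-fold higher. Of the summed FPKM of subunit a, Atp6v0a2 thus held 13.4% in floxed cells and 29.7% in wild type cells at 48 h, and Tcirg1 62.7% in floxed cells and 51.6% in wild type cells. At 24 h the share of Atp6v0a2 was 24.8% in floxed cells and 26.0% in wild type cells.

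Subunit d, the stalk base of V0, also differed between forms. Atp6v0d1, the form of most cells, fell at both times, with 101 FPKM in floxed cells and 136 FPKM in wild type cells at 24 h (1.34 times lower, q = 0.0122 in the authors' deposited table). At 48 h Atp6v0d1 had 103 FPKM in floxed cells and 134 FPKM in wild type cells, 1.31 times lower (q = 0.0380 in the authors' deposited table). Atp6v0d2, the form known from osteoclasts and kidney, had 1.93 FPKM in floxed cells and 1.48 FPKM in wild type cells at 24 h, and 4.07 FPKM in floxed cells against 0.685 FPKM in wild type cells at 48 h, called higher at 48 h. Even so Atp6v0d2 held 3.81% of subunit d FPKM in floxed cells and 0.508% in wild type cells at 48 h, so Atp6v0d1 carried nearly all of it in both lines.

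Of the V1 genes, 4 of 9 rose (44.4%) and none fell at 48 h, where 25.7% of all tested genes rose and 31.0% fell. Atp6v1b2, the regulatory subunit of the ATPase head, had 110.2 FPKM in floxed cells and 108 FPKM in wild type cells at 24 h, and 158 FPKM in floxed cells against 91.6 FPKM in wild type cells at 48 h, 1.72-fold higher. Atp6v1a, the catalytic partner of Atp6v1b2 in that head, had 104 FPKM in floxed cells and 120.5 FPKM in wild type cells at 48 h and was not called (q = 0.281 in the authors' deposited table). Atp6v1e1, of the peripheral stalk, had 229 FPKM in floxed cells and 166 FPKM in wild type cells at 48 h (1.37-fold, q = 0.0125 in the authors' deposited table). Atp6v1d, of the central rotor, had 67.0 FPKM in floxed cells and 51.0 FPKM in wild type cells at 48 h (1.31-fold, q = 0.0427 in the authors' deposited table). Atp6v1f, also of the rotor, had 227 FPKM in floxed cells and 180.1 FPKM in wild type cells and was not called. Atp6v1g2, the form of the peripheral stalk best known from neurons, was low and rose at both times, with 1.13 and 2.84 FPKM in floxed cells and 0.598 and 0.521 FPKM in wild type cells. Its common form Atp6v1g1 had 68.9 FPKM in floxed cells and 79.8 FPKM in wild type cells at 48 h, and it was not called, nor were Atp6v1c1 and Atp6v1h.

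**Figure D4:**
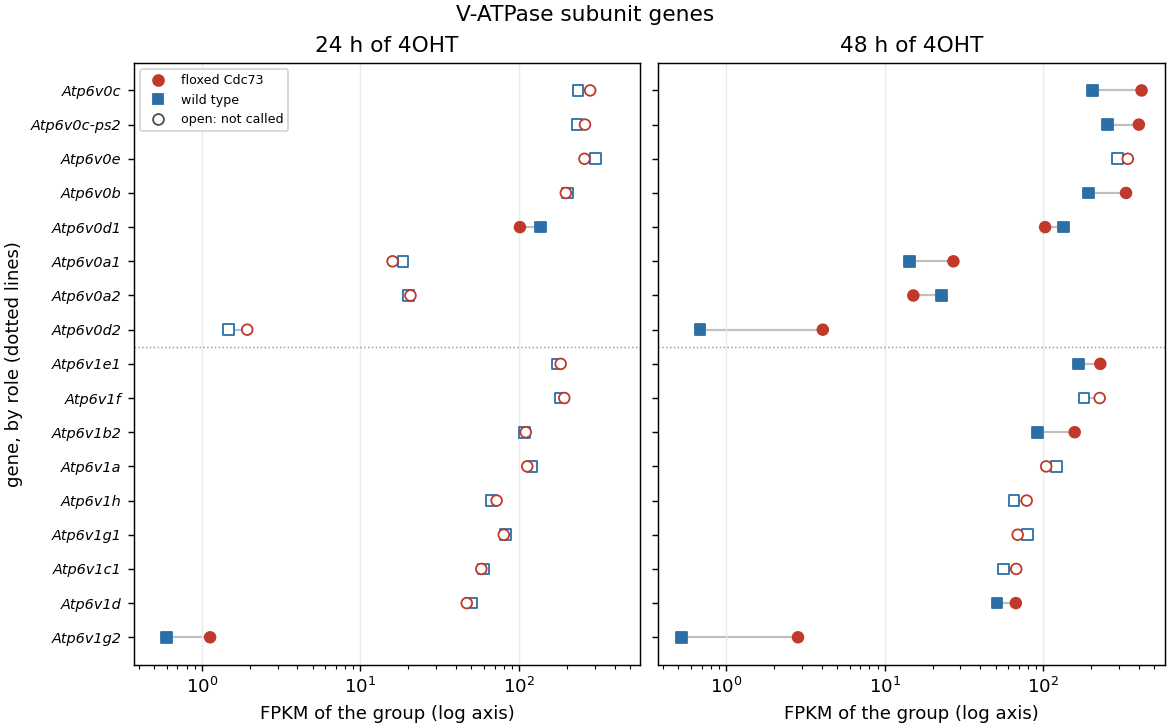
FPKM (log axis) of the 17 V-ATPase genes at 1 FPKM or more in floxed cells (red circles) and wild type cells (blue squares) at 24 h and 48 h, filled where called. At 48 h Atp6v0c (416 against 205 FPKM) and Atp6v0b lie higher in floxed cells, and Atp6v0a2 and Atp6v0d1 lie lower.

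Between 24 h and 48 h the 2 lines went opposite ways for most of the 52 lysosomal genes at 1 FPKM or more. FPKM was higher at 48 h than at 24 h for 44 of 52 genes in floxed cells (84.6%, against 43.2% of all genes at 1 FPKM or more), and lower at 48 h for 45 of 52 in wild type cells (86.5%, against 55.2%). For 40 of 52 (76.9%) both held, and for 26.6% of all such genes. The median log2 change between the times was 0.38 in floxed cells and -0.09 in wild type cells, where all genes had -0.08 in floxed cells and -0.01 in wild type cells. Lower wild type values at 48 h were also found for 52 of the 67 further lysosomal genes described below, again with a median of -0.09. They were found for 26 of 32 genes of sorting to the lysosome as well. In floxed cells 35 of the 67 were higher at 48 h and 32 lower. Ctsd at 48 h was 3.58 times its 24 h level in floxed cells and 0.877 times in wild type cells. Psap at 48 h was 1.43 times its 24 h level in floxed cells and 0.647 times in wild type cells. With groups rescaled to the same sum, by the median ratio or by quantiles, 40 to 44 genes were higher at 48 h in floxed cells and 41 or 42 lower in wild type cells. Of all genes at 1 FPKM or more, 36.8% to 49.5% were then higher in floxed cells and 43.9% to 48.2% lower in wild type cells. Whether the authors scaled both times in the same run is not stated, and neither the times nor the change of the genotype difference could be tested.

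**Figure D5:**
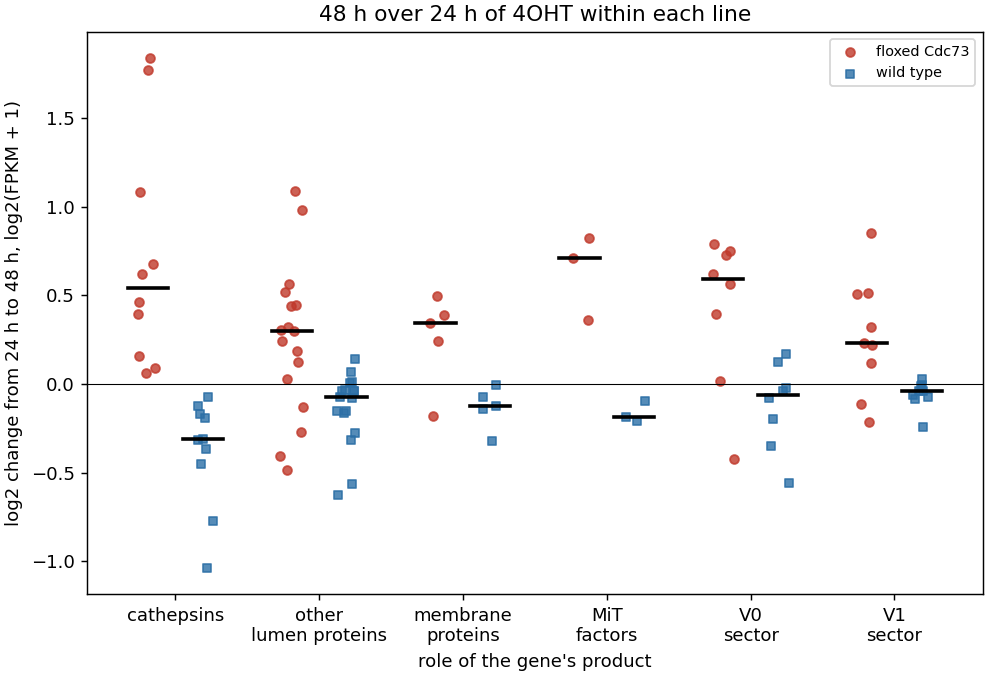
Log2 of FPKM + 1 at 48 h over 24 h in floxed cells and in wild type cells, by role of the gene, with a point per gene and black bars for medians. Points of floxed cells lie mostly above 0 and those of wild type cells mostly just under it, with medians over all 52 genes of 0.38 and -0.09.

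Lysosomal genes outside the 58 moved both ways. Of 67 further lysosomal genes at 1 FPKM or more, 26 rose (38.8%) and 15 fell (22.4%) at 48 h, where 25.7% of all tested genes rose and 31.0% fell. Their median log2 change at 48 h was 0.03. At 24 h 7 rose and 10 fell, 25.4% called against 27.6% of all tested genes. Of the 67 genes, 4 reached 1 FPKM only in floxed cells, and without those 4 the count that rose at 48 h was 22. The 48 h median changes sign with scaling, at -0.07 with groups rescaled to the same sum and 0.10 by the median ratio. Among soluble proteins, 12 of 35 rose (34.3%) and 7 fell (20%) at 48 h. The largest changes were in Lyz2, a lysozyme of macrophages and granulocytes (3333 FPKM in floxed cells and 587 FPKM in wild type cells, 5.68-fold), Plbd1 (3.42 FPKM in floxed and 0.206 FPKM in wild type cells), and Ifi30, a thiol reductase of antigen processing (143 FPKM in floxed and 42.3 FPKM in wild type cells, 3.39-fold). Among membrane proteins, 14 of 32 rose (43.8%) and 8 fell (25%) at 48 h. Those that changed most were Gpnmb (60.8 FPKM in floxed cells and 10.3 FPKM in wild type cells, 5.92-fold), the metal transporter Slc11a1 (6.85 FPKM in floxed and 0.831 FPKM in wild type cells), the peptide transporter Slc15a3 (10.2 FPKM in floxed and 2.78 FPKM in wild type cells, 3.68-fold) and Cln3 (36.1 FPKM in floxed and 11.7 FPKM in wild type cells, 3.08-fold). Slc15a3, like Sumf2 and Ppp3cb below, shares its locus entry with another gene and is uncertain.

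Genes that serve the lysosome also moved both ways. For sorting to the lysosome, 7 of 32 rose and 7 fell at 48 h (21.9% each, under the 25.7% and 31.0% of all tested genes). The largest changes there were falls of Vps41, of the HOPS tether (12.0 FPKM in floxed cells and 26.7 FPKM in wild type cells, 2.22 times lower), Ap3m1, of the AP-3 coat (18.6 FPKM in floxed and 35.3 FPKM in wild type cells, 1.90 times lower), and Sumf2 (11.4 FPKM in floxed and 21.7 FPKM in wild type cells, 1.90 times lower), and a rise of Plekhm1, an adaptor of lysosome fusion (30.9 FPKM in floxed and 16.1 FPKM in wild type cells, 1.91-fold). On a list made for control of MiT factors by mTORC1 and the Ragulator, 9 of 23 rose (39.1%) and 8 fell (34.8%). That list also holds the MiT factor Tfec, counted among the falls, and Usf1, counted among the rises. It holds Usf2 too, which was not called. Among these 23, Rragb reached 1 FPKM only in floxed cells. Rraga, a Rag GTPase, rose (77.0 FPKM in floxed cells and 37.7 FPKM in wild type cells, 2.05-fold), as did Rragb (1.94 FPKM in floxed and 0.160 FPKM in wild type cells), while Lamtor4, of the Ragulator (66.1 FPKM in floxed and 134 FPKM in wild type cells, 2.02 times lower), and Ppp3cb, a calcineurin subunit (14.3 FPKM in floxed and 34.7 FPKM in wild type cells, 2.42 times lower), fell. Of V-ATPase accessory and assembly genes 5 of 13 rose (38.5%) and 3 fell (23.1%). The pump's accessory glycoprotein Atp6ap1 rose (278 FPKM in floxed cells and 109 FPKM in wild type cells, 2.56-fold), Ncoa7 rose (14.7 FPKM in floxed and 5.82 FPKM in wild type cells, 2.53-fold), and Tmem199, of pump assembly, fell (14.2 FPKM in floxed and 24.6 FPKM in wild type cells, 1.73 times lower).

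Of 12 inhibitors of cathepsins, 8 rose (66.7%) and 4 fell (33.3%) at 48 h, where 25.7% of all tested genes rose and 31.0% fell. The median log2 change of the 12 was 1.32. The largest changes were in the stefin A cluster, whose near-identical genes make single values uncertain. BC117090 had 162 FPKM in floxed cells and 1.44 FPKM in wild type cells at 48 h, Stfa3 had 1577 FPKM in floxed and 34.0 FPKM in wild type cells, and Stfa2l1 had 432 FPKM in floxed and 68.2 FPKM in wild type cells, while Stfa1 had 2.36 FPKM in floxed and 342 FPKM in wild type cells. Outside that cluster, and chosen after their values were seen, Cst3, cystatin C, had 1213 FPKM in floxed cells and 562 FPKM in wild type cells (2.16-fold), and Cstb, stefin B, had 279 FPKM in floxed and 150.2 FPKM in wild type cells (1.86-fold). The ratio of Ctsd, which neither inhibits, to Cstb was 7.54 in floxed cells and 3.40 in wild type cells, and that of Ctsl, a target of Cstb, was 0.384 in floxed cells and 0.210 in wild type cells.

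Marker lists of mature myeloid cells moved in floxed cells at the same time. All 6 neutrophil markers in the table rose at 48 h, where 25.7% of all tested genes rose and 31.0% fell. Their sums were 1915 FPKM in floxed cells and 688 FPKM in wild type cells at 48 h, against 1116 FPKM in floxed and 1010 FPKM in wild type cells at 24 h. At 24 h 3 of the 6 were called higher and 1, Lcn2, lower. The macrophage list summed to 108 FPKM in floxed cells and 44.1 FPKM in wild type cells at 48 h, with 4 of 8 called higher, Marco among them. C1qa, C1qb, C1qc, Marco and Vsig4 were under 1 FPKM in every group. At 24 h the list summed to 50.7 FPKM in floxed and 70.6 FPKM in wild type cells, with Cd68 and C1qb called lower and none higher. Of 6 monocyte markers 3 rose and 3 fell at 48 h, and 4 fell at 24 h. Their sums at 48 h, 3051 FPKM in floxed and 2086 FPKM in wild type cells, were mostly Ly6c2 (2860.2 FPKM in floxed and 1859 FPKM in wild type cells). Beside Ctsk and Atp6v0d2, which are themselves on the osteoclast list, Mmp9 rose at 48 h (46.7 FPKM in floxed cells and 7.01 FPKM in wild type cells). At 24 h Mmp9 was called lower (4.12 FPKM in floxed and 9.90 FPKM in wild type cells). Acp5, with a shared locus entry, was not called at either time (7.54 FPKM in floxed and 4.53 FPKM in wild type cells at 48 h). Calcr, Dcstamp, Ocstamp and Oscar stayed under 1 FPKM in every group. The eosinophil list summed to 104 and 72.2 FPKM in floxed cells at 24 h and 48 h, against 2.0 and 1.35 FPKM in wild type cells. Most of it was Prg2 (92.6 and 66.6 FPKM in floxed cells at 24 h and 48 h), with some Epx. Ccr3 was under 1 FPKM in every group, and Siglecf had no entry. The 4 erythroid and 4 T cell markers were under 1 FPKM in every group. Of the B cell list Cd79b alone reached 1 FPKM, and it was higher at both times, with 8.21 and 5.90 FPKM in floxed cells against 0.890 and 1.06 FPKM in wild type cells. Of the mast cell and basophil list Mcpt8 alone did, higher at both times, with 8.77 and 5.92 FPKM in floxed cells against 3.16 and 3.52 FPKM in wild type cells. The part of these markers in the lysosomal results was not tested.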

How the data were processed

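Per the labels' protocols, a Qiagen RNeasy kit and an Illumina HiSeq were used. The submitters' processing notes name Bowtie2, Cuffdiff, Cufflinks 2.1 and the build mm10, without their roles, and neither strandedness nor the annotation used for counting is stated. The authors deposited 1 FPKM value per gene and group and a q-value of the genotype comparison at 24 h and at 48 h, per the file headers. Since FPKM is scaled to the library, it does not show a change of all RNA in a cell. With no value per library, the planned limma fit could not be made, so a gene was called from the deposited q-value under 0.05, and no depth, error, interval or check between duplicates could be computed.

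Genes that reached 1 FPKM in any group were kept (11158), without 27 whose names had become dates, and a gene counted as tested where q was under 1 (10987 genes at 24 h and 11039 at 48 h). Locations are from GENCODE M21 (mm10, matched by symbol for 57 of 58 genes), and promoters are from RefSeq. The members and lists were chosen with earlier results of these data known. Every member is accounted for. Of each further list, the 4 called genes with the largest log2 change at 48 h are named, and Cdc73 as a check of labels. A gene that this rule names is not reported here. The scripts (Python 3.11.15, pandas 2.3.3, numpy 2.4.6, matplotlib 3.10.9) were tested on simulated data.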

Additional observations from a re-analysis of the deposited data

Results flagged for a closer look

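Among genes of the further lists (marker lists not counted), 3 were called lower in floxed cells at 24 h and higher at 48 h. The difference between the times was not tested, with 1 value per group. Of all 11158 genes at 1 FPKM or more, 136 were called in opposite directions at the 2 times, in either order. Cd68, a macrophage lysosomal glycoprotein, had a fold of floxed over wild type cells of 0.701 at 24 h and 2.61 at 48 h. Fnip2, a partner of folliculin, had folds of 0.661 and 1.76, and its locus entry is shared with another gene. Tpcn1, an endolysosomal cation channel, had folds of 0.747 and 1.33.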

How the results depend on the processing

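No paired analysis was possible because the table holds 1 value per group, and for the same reason no replicate could be left out. Of the alternatives to the summary counts and medians, 151 left the value within 1.5 times of a count or 0.1 of a median and 29 moved it. With q under 0.01, 4 lysosomal genes were called at 24 h (3 higher, 1 lower) in place of 10, and at 48 h 2 were lower in place of 4. V-ATPase calls then were 0 at 24 h (0 higher, 0 lower) in place of 2, and 7 at 48 h in place of 11, 1 of them lower. Of the 67 further lysosomal genes, 9 were then called at 24 h in place of 17 (4 higher, 5 lower). With calls of at least 1.5-fold, 3 lysosomal genes were called at 24 h (3 higher, 0 lower) and 2 were lower at 48 h. V-ATPase calls then were 1 at 24 h (0 lower), with 1 lower at 48 h, and further lysosomal genes 7 at 24 h (4 higher, 3 lower). At a mean of 5 FPKM or more, 1 V-ATPase gene was called at 24 h and 0 were higher. Without genes that reach 1 FPKM only in floxed cells, an alternative chosen after seeing the data, 3 lysosomal genes were higher at 24 h, and 1 V-ATPase gene was called, 0 of them higher. Including genes below 1 FPKM, the V-ATPase median at 48 h was 0.26, and that of further lysosomal genes 0.20 without shared locus entries, and the cause was not tested. Under the other scalings and pseudocounts, 0 of the called values of lysosomal genes changed sign, while uncalled values of 6 genes near 0 did (Ctsd, Ctsz, Lamp1, Laptm5 and Hexa at 24 h, Gaa at 48 h). The 24 h counts rest on few genes and depend most on the threshold. For comparison, 843 of all 10987 tested genes were called higher at 24 h and at least 1.5-fold. For the other counts here the share of all genes is not given, so they show only how calls depend on the setting. Unknown depth limits the low genes Ctsk, Atp6v0d2, Atp6v1g2, Mitf and Lgmn most.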
